A study of Capra hircus with 12 samples.

Results

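Fibroblast growth factor (FGF) ligands, their receptors and the Sprouty inhibitors were followed in cultured goat temporomandibular joint (TMJ) cells. The set was named gene by gene and holds the ligands FGF1, FGF2, FGF7 and FGF18, the receptors FGFR1, FGFR2, FGFR3 and FGFRL1, and the inhibitors SPRY2 and SPRY4. Of these 10 names, 9 matched a row among the 28910 genes of the count tables. FGFR3 was not analysed here. Cells came from the condyles of young female goats (Capra hircus) obtained from abattoirs, and were separated by collagenase into superficial layer cells (SLC) and middle layer cells (MLC) before culture. For each layer, RNA was sequenced from 3 samples with the treatment label IL-1β and from 3 with the label IL-1β + LOXL2, so that every one of the 12 libraries comes from cells exposed for a short time to the inflammatory cytokine interleukin-1β. Lysyl oxidase-like 2 (LOXL2), a collagen cross-linking enzyme, was delivered overnight by an adenovirus before the cytokine. The study names an empty adenovirus for a flow cytometry assay but not for these RNA samples, and no source used here says that replicates were separate animals or cultures. Effects of LOXL2 and of the virus cannot be told apart, and p-values measure only the spread between these libraries, which may be technical. Untreated cells were not analysed here.

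Most FGFs are secreted proteins that bind heparan sulfate and switch on receptor tyrosine kinases at the cell surface. The activated receptor recruits adaptors such as FRS2, which start the RAS-ERK relay, and the relay in turn induces the Sprouty proteins, which damp it. In cartilage, FGFR1 signaling is associated with matrix breakdown and FGFR3 signaling with matrix maintenance. FGF2 is stored in the matrix around chondrocytes and is released on injury, and FGF18 promotes cartilage matrix synthesis.

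Raw counts per gene were scaled to normalized counts with the median-of-ratios method over all 12 libraries. Library totals ranged from 14158607 to 28931652 counts. The LOXL2 gene (ARS1.2 chromosome 8, 70222328 to 70337511) was checked first. Its normalized counts in SLC were 11583, 11647 and 11894 with IL-1β and 8541, 10124 and 10387 with IL-1β + LOXL2. In MLC, they were 14291, 16294 and 15189 with IL-1β and 15250, 14740 and 13808 with IL-1β + LOXL2. LOXL2-labelled libraries thus held no more LOXL2 than IL-1β libraries (log2 fold change -0.27 in SLC and -0.066 in MLC, adjusted p = 0.106 and 0.595, edgeR), and the label was not borne out by counts on the goat gene. In a fit on all 12 libraries, LOXL2 was called lower in SLC (-0.25, adjusted p = 0.0480, edgeR). Reads of the transgene would be counted only where they map to this gene, and the species of the transgene was not given in the sources used here. The first replicate of each LOXL2-labelled group stood apart. The first LOXL2-labelled SLC replicate differed from the rest of its group by a chi-square per degree of freedom of 159 and 58.1, against 29.2 between the other two and at most 9.37 for pairs of IL-1β libraries. The first LOXL2-labelled MLC replicate differed from its group by 15.2 and 33.9, against 5.81 between the other two. Results that rest on either library are given with and without it.

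The layer labels were checked against marker genes. COL2A1, the cartilage collagen, was counted 159 to 295 times in the MLC libraries with IL-1β and 0 times in every SLC library with IL-1β, and ACAN, the main cartilage proteoglycan, was 3.08 higher in MLC on the log2 scale. Of 12 chondrocyte markers tested with IL-1β, 9 were higher in MLC and 0 lower (adjusted p under 0.05, edgeR). COL2A1 and COL9A1, another cartilage collagen, passed the filter on low counts through MLC alone, having 0 counts in SLC with IL-1β. Of all 13965 genes tested in this comparison, 46.9% were called in either direction. The summed level of the chondrocyte list was 1340 to 1470 CPM (counts scaled to a common library size) in SLC and 1810 to 1980 CPM in MLC with IL-1β. Of the superficial layer and fibroblast markers, 6 of 12 were higher and 4 lower in MLC, and PRG4, the lubricin gene, was counted 73 to 149 times in all 12 libraries. Of 4 smooth muscle and pericyte markers tested, 3 were lower in MLC, with summed levels of 1490 to 1920 CPM in SLC and 899 to 1010 CPM in MLC. Endothelial and leukocyte lists summed to at most 65.5 and 142 CPM in any library. Within these lists, CDH5 and PTPRC had at most 2 counts in any library, but other genes were expressed. ERG of the endothelial list had 605 to 1132 normalized counts, and CD14 of the leukocyte list had 880 to 2474. Of the endothelial markers tested with IL-1β, 2 were higher and 1 lower in MLC, and of the leukocyte markers 1 of 5 was higher. Osteoblast markers summed to at most 39.8 CPM, 2 of 3 tested were lower in MLC, and DMP1 was at 0 in all 12 libraries. Other genes of these lists also passed the filter only through the layer in which they are high. With IL-1β these were COL11A2 and CD3E through MLC, and TNXB, TEK and ALPL through SLC. TNXB had 60 summed counts in SLC and 10 in MLC, and ALPL had 60 and 21. IBSP, with 4 in SLC and 27 in MLC, was not tested. The counts of higher and lower markers thus rest partly on the filter. With the LOXL2 label, the chondrocyte list summed to 763 to 1330 CPM in SLC and 1530 to 1920 CPM in MLC, and the smooth muscle list to 1780 to 2100 CPM and 1170 to 1500 CPM. The part of these marker genes in the FGF results was not tested. Fewer cells of a type and less RNA per cell cannot be told apart in bulk RNA.

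The layers differed in FGF receptors and ligands. Layer coincides with separate digestion and culture and with a separate count table, so layer and any batch of it cannot be told apart. With IL-1β, FGFRL1, FGFR2 and FGFR1 were higher in MLC and FGF7 was lower, while FGF2, SPRY2 and SPRY4 did not pass the test. These 4 called members of 7 tested stand against 46.9% of 13965 genes called in this comparison, a share near that of the members. FGFRL1 had the largest difference of the members, 7.76-fold, and ranked 41 among all genes by p.

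**Figure D1:**
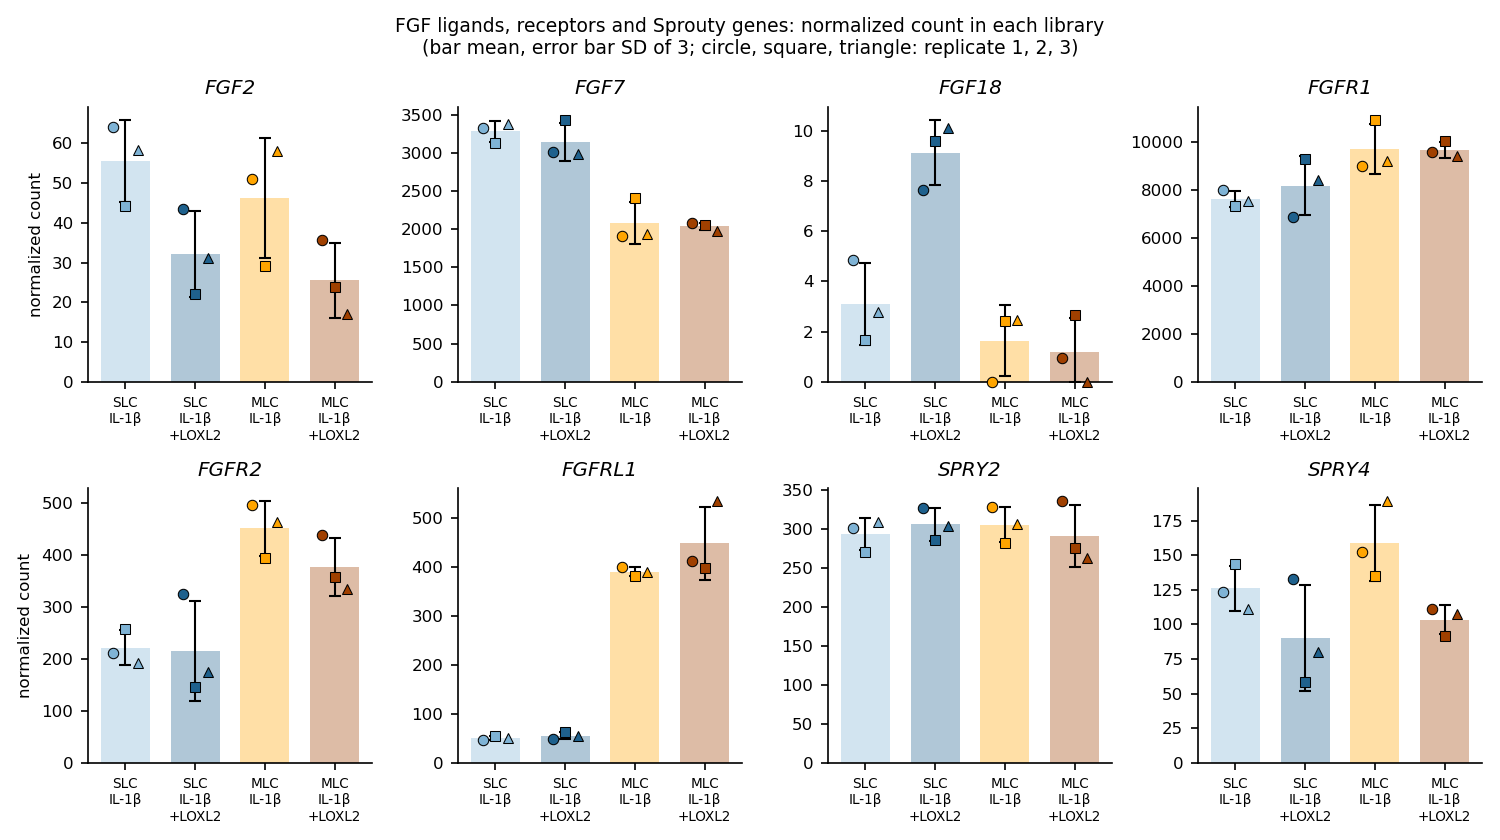
Normalized count (vertical axis, from 0) of 8 members in each of the 12 libraries, grouped by layer and treatment label. Bars are means, error bars are SD of 3 libraries cut off at 0, and circles, squares and triangles are replicates 1, 2 and 3. FGFRL1 lies between 381 and 534 in MLC and between 46.7 and 63.2 in SLC, and FGF7 is lower in every MLC library than in every SLC library.

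FGFRL1 codes for a receptor that binds FGFs but lacks the intracellular kinase domain, so that it can act as a decoy. Its gene lies on a sequence of ARS1.2 that is not placed on a chromosome, and whether it overlaps another gene was not determined. With IL-1β, its normalized counts were 46.7, 55.1 and 50.1 in SLC and 399, 381 and 390 in MLC. With IL-1β + LOXL2, they were 48.5, 63.2 and 54.0 in SLC and 411, 399 and 534 in MLC. Every MLC library stood above every SLC library, and the spread within a layer was small beside the gap. MLC exceeded SLC by a log2 fold change of 2.96 ± 0.12 (SE) with IL-1β (adjusted p = 1.59e-10, edgeR) and 3.03 ± 0.19 with IL-1β + LOXL2 (adjusted p = 1.77e-04, edgeR), a fold of 8.15. It passed the threshold under all 13 alternatives in each of these comparisons.

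FGFR2 (chromosome 26, 10428013 to 10533232) codes for a receptor tyrosine kinase whose isoforms differ in the ligands they bind. Gene counts do not separate the isoforms. Its normalized counts with IL-1β were 212, 258 and 193 in SLC and 496, 393 and 464 in MLC, which do not overlap. This was a log2 fold change of 1.04 ± 0.12 (adjusted p = 5.56e-06, edgeR), or 2.06-fold. With IL-1β + LOXL2, the counts were 324, 146 and 176 in SLC and 439, 357 and 334 in MLC. The groups again did not overlap, but the first SLC replicate came close to the lowest MLC library. A log2 fold change of 0.82 ± 0.30 did not pass the test (adjusted p = 0.120, edgeR). Same-numbered libraries labelled LOXL2 deviated together in the 2 layers, and with the replicate number as a block FGFR2 passed at 0.88 (adjusted p = 0.00699, edgeR). It also passed without the first SLC replicate (1.25, adjusted p = 7.92e-04), in the fit on all 12 libraries (adjusted p = 0.0259) and with the trend of counts on gene span removed (adjusted p = 0.0203, all edgeR).

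FGFR1 (chromosome 27, 12072459 to 12124376), the other receptor kinase measured, had, with IL-1β, normalized counts of 8004, 7336 and 7564 in SLC against 9035, 10936 and 9222 in MLC. All MLC libraries were higher, by 0.37 ± 0.075 on the log2 scale (adjusted p = 9.96e-04, edgeR), or 1.29-fold. With IL-1β + LOXL2, the counts were 6868, 9295 and 8440 in SLC and 9590, 10076 and 9426 in MLC. The order of the layers was the same and the groups did not overlap, but the difference of 0.25 ± 0.13 did not pass the test (adjusted p = 0.255, edgeR). Its 95% interval ran from -0.055 to 0.56.

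FGF7, keratinocyte growth factor, is made by mesenchymal cells and acts mainly on an isoform of FGFR2. Its gene (chromosome 10, 42303876 to 42366015) lies wholly within the span of FAM227B, which had 13 to 30 counts in any library. FGF7 counts with IL-1β were 3327, 3132 and 3384 in SLC and 1906, 2402 and 1935 in MLC. With IL-1β + LOXL2, they were 3010, 3429 and 2980 in SLC and 2074, 2054 and 1977 in MLC. FGF7 was lower in MLC by both comparisons and in every library, while FGFR2 ran the other way. In log2 fold change this was -0.64 ± 0.082 with IL-1β (adjusted p = 1.81e-05, edgeR) and -0.61 ± 0.11 with IL-1β + LOXL2 (adjusted p = 0.00788, edgeR). The second call was lost without the second or the third MLC library labelled LOXL2 (adjusted p = 0.0547 and 0.0546, edgeR).

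FGF18 (chromosome 20, 3286037 to 3322014) was near the limit of detection and did not pass the filter on low counts. Its raw counts were 5, 2 and 3 in SLC with IL-1β, 9, 14 and 12 in SLC with IL-1β + LOXL2, 0, 2 and 2 in MLC with IL-1β, and 1, 2 and 0 in MLC with IL-1β + LOXL2. The SLC libraries labelled LOXL2 were the highest group and overlapped with no other. Relative to total counts, the summed FGF18 count of these libraries was 2.94 times that of SLC with IL-1β (95% interval 1.42 to 6.65, counting error only). The normalized counts of these 3 libraries against 3 gave p = 0.1 in a two-sided exact permutation test, the smallest p that 3 against 3 can give. Without the filter, edgeR gave a log2 fold change of 1.56 ± 0.55 (adjusted p = 0.0885). The MLC sum with IL-1β + LOXL2 was 0.118 times that of SLC (95% interval 0.0232 to 0.374, counting error only), and edgeR without the filter gave a log2 fold change of -2.93 ± 0.81 (adjusted p = 0.0420). On leaving out MLC replicate 1, 2 or 3 labelled LOXL2, FGF18 passed the filter through the SLC group alone and had adjusted p = 0.112, 0.0450 and 0.0895 (edgeR). Entry into these fits depended on the group in which FGF18 is high, so no result is drawn from them.

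FGF1, the acidic FGF that binds all the FGF receptor kinases, was at or near 0. Its counts were 0, 0 and 0 in SLC with IL-1β, 1, 0 and 1 in SLC with IL-1β + LOXL2, 1, 2 and 0 in MLC with IL-1β, and 0, 0 and 3 in MLC with IL-1β + LOXL2. The gene (chromosome 7, 56787497 to 56900206) overlaps 2 long noncoding RNA genes. No difference between groups was detectable at this depth.

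The members that passed no test between layers were FGF2 and the Sprouty genes. FGF2, or basic FGF (chromosome 17, 36227055 to 36278139), was 0.25 lower in MLC on the log2 scale with IL-1β (95% interval of the difference -0.79 to 0.30) and 0.31 lower with IL-1β + LOXL2 (-1.20 to 0.57). SPRY2 differed by 0.078 (-0.13 to 0.29) and -0.061 (-0.40 to 0.28). SPRY4 differed by 0.35 with IL-1β (0.020 to 0.68, adjusted p = 0.0761, edgeR) and by 0.21 with IL-1β + LOXL2 (-0.52 to 0.94). The SPRY4 difference with IL-1β passed the threshold without the second SLC library (0.45, adjusted p = 0.0466, edgeR) or without the second MLC library (0.45, adjusted p = 0.0230, edgeR).

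With IL-1β + LOXL2, 2 of the 7 tested members, FGFRL1 and FGF7, were called between layers, against 16.1% of 14085 genes. The groups did not overlap for 4 of 7 members in either layer comparison, against 56.1% of genes with IL-1β and 35.1% with IL-1β + LOXL2. The 2 layer comparisons use different libraries. Each shares its libraries with the comparisons of LOXL2 labels within a layer.

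**Figure D2:**
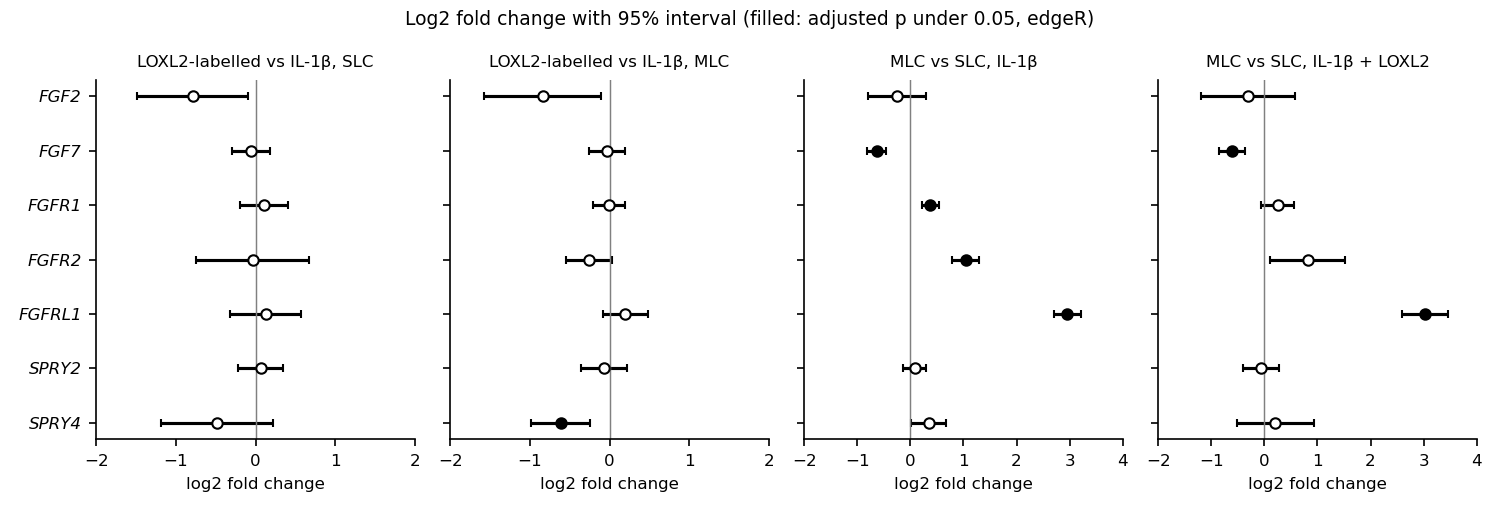
Log2 fold change (horizontal axis) of the 7 tested members in 4 comparisons, with 95% intervals; filled points have an adjusted p under 0.05 in edgeR and open points do not. FGFRL1 sits near 3 in both layer comparisons, FGF7 lies below 0 in both, and SPRY4 in MLC is the 1 filled point in the comparisons of LOXL2 labels.

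Within layers, the libraries labelled IL-1β + LOXL2 were compared with those labelled IL-1β. Ligand FGF2 and inhibitor SPRY4 had the lowest log2 fold changes of the members in both layers, and SPRY4 in MLC was the only one called. FGF7, FGFR1, FGFRL1 and SPRY2 passed the test in neither layer under any of the alternatives run.

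SPRY4 (chromosome 7, 57178370 to 57192785) codes for a Sprouty protein, induced by ERK signaling, that inhibits the relay. In MLC, its normalized counts were 152, 135 and 189 with IL-1β and 111, 91.4 and 108 with IL-1β + LOXL2. The groups did not overlap. SPRY4 was lower by a log2 fold change of -0.62 ± 0.17 (adjusted p = 0.0300, edgeR), or 0.653-fold. In SLC, the counts were 124, 144 and 111 with IL-1β and 133, 58.4 and 80.2 with IL-1β + LOXL2. The first replicate labelled LOXL2 lay among the IL-1β libraries and the other two lay below them. Its log2 fold change in SLC was -0.48 ± 0.30 (adjusted p = 0.241, edgeR), and -0.88 without that library (adjusted p = 0.00278, edgeR). The call in MLC held with the gene-span trend removed (-0.67, adjusted p = 0.0280, edgeR). It was lost in a fit on all 12 libraries (adjusted p = 0.178) and on leaving out IL-1β replicate 1, IL-1β replicate 3, or LOXL2-labelled replicate 2 or 3 (adjusted p = 0.0868, 0.147, 0.129 and 0.0691, edgeR). Some marker genes were also called with this label in MLC, where 21.6% of all genes were called in either direction. Of 4 smooth muscle markers, 2 rose. Of 12 chondrocyte markers, 2 fell and 1 rose, a share near that of all genes. Of 11 superficial layer and fibroblast markers, 3 fell and 1 rose. Of the endothelial, leukocyte and osteoblast markers tested, 0 were called by edgeR, 1 of them passing at an unadjusted p under 0.05. With DESeq2's size factors in place of TMM, 5347 of 13664 genes passed at that p (edgeR). The part of these markers in the SPRY4 result was not tested.

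FGF2 is an ERK-activating ligand without a classical signal peptide that cells nevertheless export. Its counts in SLC were 64.2, 44.3 and 58.4 with IL-1β and 43.4, 22.0 and 31.2 with IL-1β + LOXL2. In MLC, they were 51.2, 29.2 and 58.1 with IL-1β and 35.7, 23.8 and 17.1 with IL-1β + LOXL2. The SLC groups did not overlap, by a narrow margin between 43.4 and 44.3, and the MLC groups overlapped at the second IL-1β library. FGF2 fold changes were, on the log2 scale, -0.79 ± 0.30 in SLC and -0.84 ± 0.34 in MLC, which did not pass (adjusted p = 0.0908 and 0.0869, edgeR). It became -1.07 in SLC without the first replicate labelled LOXL2 (adjusted p = 0.00620, edgeR) and -1.18 in MLC without the first replicate labelled LOXL2 (adjusted p = 0.0140, edgeR). In MLC, it also passed with no filter on low counts (-0.83, adjusted p = 0.0498, edgeR).

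FGFR2 showed the same arrangement of libraries. The first replicate labelled LOXL2 was the highest of its group in each layer, at 324 in SLC and 439 in MLC. FGFR2 fold changes were, on the log2 scale, -0.037 ± 0.30 in SLC and -0.26 ± 0.13 in MLC (adjusted p = 0.931 and 0.168, edgeR). Without that library, the value was -0.47 in SLC (adjusted p = 0.0249, edgeR) and -0.38 in MLC (adjusted p = 0.0129, edgeR). In SLC its sign changed with the library left out, from -0.47 to 0.18. With the trend of counts on gene span removed, it was 0.30 in SLC and 3.7e-04 in MLC, and passed in neither.

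**Figure D3:**
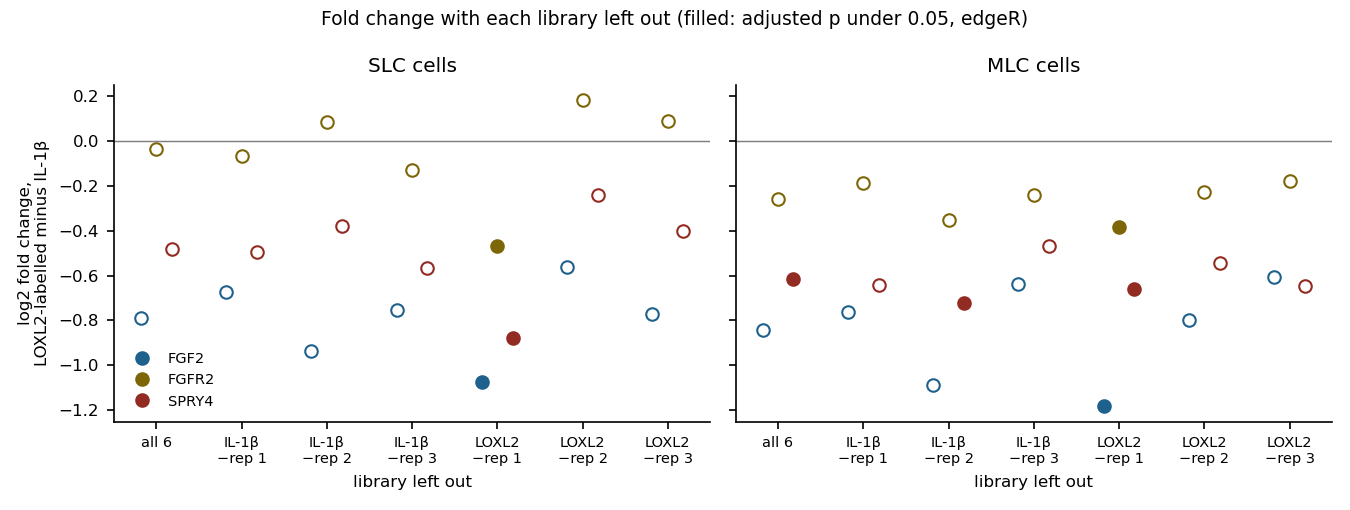
Log2 fold change of FGF2, FGFR2 and SPRY4 (vertical axis, libraries labelled LOXL2 minus IL-1β) with all 6 libraries of a layer and with each left out in turn (horizontal axis). Filled points have an adjusted p under 0.05 in edgeR; in SLC all filled points fall at the fit without the first replicate labelled LOXL2, where FGF2 is -1.07, SPRY4 -0.88 and FGFR2 -0.47.

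SPRY2 (chromosome 12, 30726116 to 30727907), which codes for another Sprouty inhibitor, stayed within a narrow range. Its counts were 302, 271 and 309 in SLC with IL-1β, 328, 286 and 304 in SLC with IL-1β + LOXL2, 328, 282 and 307 in MLC with IL-1β, and 336, 275 and 262 in MLC with IL-1β + LOXL2. All 4 groups overlapped. With the LOXL2 label, SPRY2 differed by 0.063 on the log2 scale in SLC (95% interval -0.22 to 0.35) and -0.071 in MLC (-0.36 to 0.21). FGF7 differed by -0.060 (-0.30 to 0.18) in SLC and -0.035 (-0.26 to 0.19) in MLC, and FGFR1 by 0.11 (-0.20 to 0.41) and -0.0072 (-0.21 to 0.20). FGFRL1 differed by 0.13 (-0.32 to 0.58) and 0.20 (-0.081 to 0.48).

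In MLC, 1 of 7 tested members was called, against 21.6% of 13664 genes called in either direction and 11.8% called lower. The groups of 1 member did not overlap in each layer, against 41.4% of genes in MLC and 49.0% in SLC. In SLC, edgeR called 0 members and 0% of 14103 genes. At an unadjusted p under 0.05, 1 member (FGF2) passed, against 43.3% of genes. DESeq2's Wald test also called 0 members, while it called 4140 genes, or 29.4%. A fit on all 12 libraries called 0 members and 5965 genes, or 41.0%. Without the first SLC replicate labelled LOXL2, 3 of these 7 members were called, FGF2, FGFR2 and SPRY4, all lower, against 61.7% of 14334 genes. FGF18 passed the filter there only through the group in which it is high, and is not counted. Without the first MLC replicate labelled LOXL2, 3 of 7 members were called, SPRY4, FGF2 and FGFR2, against 48.1% of genes. Counted in either direction, the share of members called was in none of these fits above that of all genes.

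An interaction term, fitted to all 12 libraries, tested whether the difference with the LOXL2 label was itself unequal in SLC and MLC. edgeR called 0 of 7 members and 0% of 14534 genes. At an unadjusted p under 0.05, 0 members passed, against 2.26% of genes, and DESeq2's Wald test called 0 genes. Without the first LOXL2-labelled SLC replicate, 3987 genes passed at an unadjusted p under 0.05 and 1 was called, which was no member. The interaction was -0.14 ± 0.36 on the log2 scale for SPRY4 and -0.064 ± 0.48 for FGF2. Their 95% intervals, -0.92 to 0.63 and -1.10 to 0.97, leave room for differences as large as the fold changes themselves. The call of SPRY4 in MLC and its absence in SLC are therefore not a shown difference between layers.

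The rest of the pathway was read from lists of genes by role. Of 18 other FGF ligand genes, 5 had no count in any library, and 3 passed the filter in the layer comparison with IL-1β. FGF13 and FGF5 passed it only through SLC, where they are high. No count of calls or median of the list, and no test of either gene, is therefore given. FGF13, an FGF that stays inside the cell, was counted 224, 180 and 186 times in SLC and 6, 9 and 9 times in MLC with IL-1β. FGF5, a secreted FGF best known for ending hair growth, had 18 to 25 counts in SLC libraries and 0 or 1 in MLC libraries with IL-1β. FGF10, which like FGF7 acts on an FGFR2 isoform, was 0.45 ± 0.12 lower in MLC on the log2 scale (adjusted p = 0.00672, edgeR). With IL-1β + LOXL2, FGF13 was counted 188, 270 and 215 times in SLC and 3, 10 and 19 times in MLC.

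Co-receptors went mostly the other way between layers. Of 8 receptor and co-receptor genes tested with IL-1β, 6 were higher in MLC and GPC4 was lower, against 46.9% of all genes called, with a median log2 fold change of 0.65. CDH2, the N-cadherin that binds FGF receptors, was 2.16 ± 0.063 higher (adjusted p = 5.46e-12, edgeR). The heparan sulfate proteoglycans SDC2, SDC1 and GPC1 were 1.69, 0.94 and 0.67 higher. With IL-1β + LOXL2, 5 of 8 were higher and 0 lower, against 16.1% of all genes called, and the median was 0.63. Within layers, edgeR called 0 of the 8 with the LOXL2 label, against 0% of all genes in SLC and 21.6% in MLC. At an unadjusted p under 0.05, 3 passed in each layer. In MLC, 5347 of 13664 genes passed at that p with DESeq2's size factors in place of TMM (edgeR). DESeq2 called 3 in SLC and 1 in MLC. Of all genes in SLC, 43.3% passed at an unadjusted p under 0.05 (edgeR), and DESeq2 called 29.4%. In MLC, DESeq2 called 3257 of 13664 genes. On the log2 scale, SDC2 differed by 0.52 ± 0.11 in SLC and GPC1 by 0.28 ± 0.096 in MLC (adjusted p = 0.0706 and 0.0533, edgeR).

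The list of feedback inhibitors, without the 2 members, holds 13 genes. The role that names the list was not tested here, and FLRT2 and FLRT3 are not taken here as inhibitors of the relay. Both are in the counts and medians that follow. Of the 13, 3 fell in MLC with the LOXL2 label and 0 rose, against 11.8% of all genes called lower and 21.6% in either direction. These were SPRED1 (-0.53 ± 0.13, adjusted p = 0.0229, edgeR) and SPRED2 (-0.42 ± 0.13, adjusted p = 0.0375), which hold back RAF activation, and RASA1 (-0.35 ± 0.11, adjusted p = 0.0476), a RAS GTPase-activating protein. The median of the 13 was -0.27, against 0.0079 for all genes, and 12 had a log2 fold change below 0. In SLC, 11 of 13 were below 0 with a median of -0.46, against 0.013 for all genes. edgeR called 0 of them there, 6 passed at an unadjusted p under 0.05 (43.3% of all genes did), and DESeq2 called 4 (29.4% of all genes). Without the first SLC replicate labelled LOXL2, 9 of 13 were called, against 61.7% of all genes, and without the first MLC replicate labelled LOXL2, 7 of 13 were, against 48.1%. With the gene-span trend removed, 0 of the 13 were called in MLC, against 937 of 13637 genes called lower and 1063 higher.

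**Figure D4:**
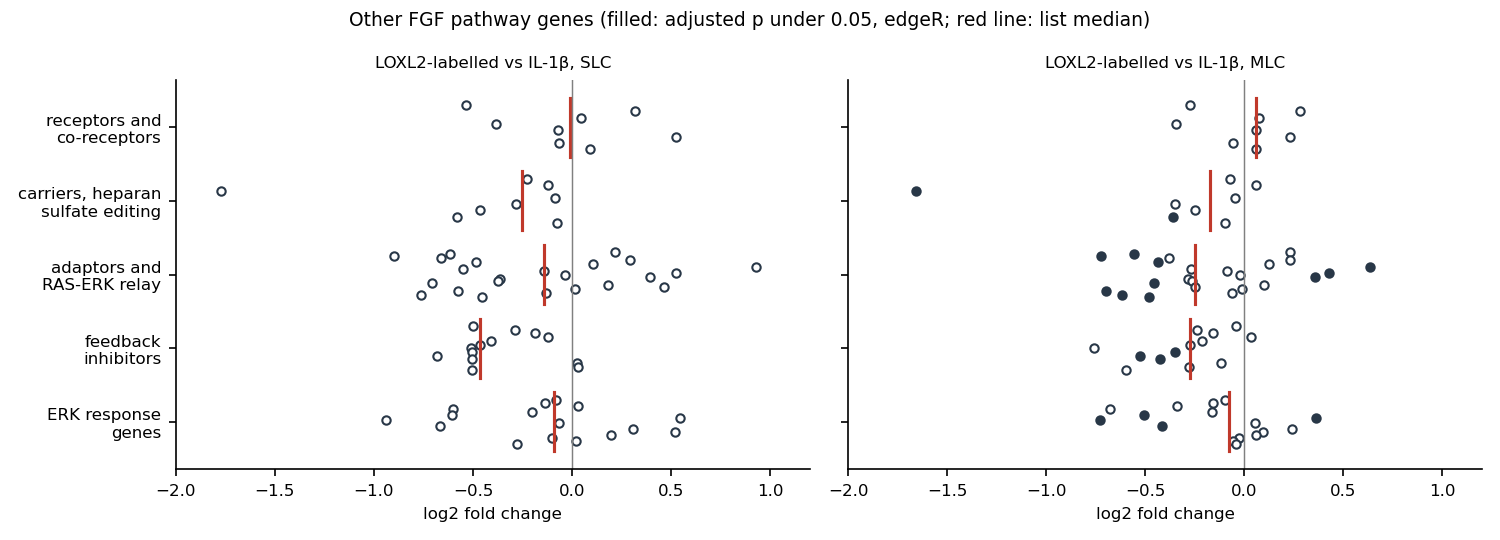
Log2 fold change (horizontal axis, libraries labelled LOXL2 against IL-1β) of the tested genes of 5 pathway lists in SLC and MLC. Each point is a gene, filled where its adjusted p is under 0.05 in edgeR, and red lines are list medians. The list of feedback inhibitors, FLRT2 and FLRT3 included, has medians of -0.46 in SLC and -0.27 in MLC.

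The adaptors and the RAS-ERK relay were split. In MLC, 7 of 23 genes fell and 3 rose with the LOXL2 label, against 21.6% of all genes called in either direction. The 4 with the smallest p were the ERK-activated kinase RPS6KA3 (-0.70 ± 0.13), the ubiquitin ligase CBL (-0.73 ± 0.15), the kinase BRAF (-0.56 ± 0.12) and the small GTPase HRAS, which rose by 0.63 ± 0.15 on the log2 scale (adjusted p = 0.0190, 0.0197, 0.0199 and 0.0220, edgeR). With the gene-span trend removed, 3 genes of the list were called lower and 3 higher, against 937 of 13637 genes lower and 1063 higher. In SLC, edgeR called 0 of the 23, and 13 passed at an unadjusted p under 0.05, against 43.3% of all genes. DESeq2 called 7 lower and 3 higher there, against 29.4% of all genes in either direction.

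Of 16 ERK response genes, 3 fell and 1 rose in MLC with the LOXL2 label, a share near the 21.6% of all genes called. The ETS factors ETV1 and ETV5 fell by 0.51 and 0.73 on the log2 scale, the AP-1 member FOSL1 fell by 0.41, and the ETS factor ETV4 rose by 0.36 (adjusted p = 0.0247, 0.0350, 0.0268 and 0.0456, edgeR). With the gene-span trend removed, 1 was called lower and 0 higher, against 937 of 13637 genes lower and 1063 higher. In SLC, edgeR called 0 of the 16, and 5 passed at an unadjusted p under 0.05, against 43.3% of all genes. DESeq2 called 2 lower and 1 higher there, against 29.4% of all genes in either direction. Of 8 ligand carriers and heparan sulfate editing enzymes tested in MLC, 2 fell and 0 rose, again near the 21.6% of all genes. HS2ST1, which sulfates the heparan sulfate site that FGFs bind, had the larger change, with normalized counts of 200 to 243 with IL-1β and 49.0 to 112 with IL-1β + LOXL2 (-1.66 ± 0.26, adjusted p = 0.0190, edgeR). SULF1, which removes heparan sulfate 6-O-sulfate, fell by 0.36 on the log2 scale (adjusted p = 0.0416, edgeR). In SLC, edgeR called 0 of the 8, and 4 passed at an unadjusted p under 0.05, against 43.3% of all genes. DESeq2 called 3 lower there, against 29.4% of all genes in either direction. HS2ST1 had a log2 fold change of -1.77 ± 0.47 there (adjusted p = 0.0706, edgeR).

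The calls of all these lists in MLC rest on few libraries. When all 12 libraries were fitted together, or when IL-1β replicate 1, IL-1β replicate 3 or LOXL2-labelled replicate 2 was left out, 0 genes of the whole table and so 0 of each list were called. Feedback inhibitors also had 0 called without the second IL-1β library or the third LOXL2-labelled library, against 3 with all 6 libraries. Those fits called 822 of 13824 and 474 of 13834 genes, in that order. Without the first LOXL2-labelled MLC replicate, 11 adaptors and relay genes and 5 ERK response genes were called lower. That fit called 48.1% of all genes in either direction. Over the fits with a library left out, up to 4 adaptors and relay genes and up to 2 ERK response genes were called higher.

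Genes with the pattern most like each member were sought by Pearson's r of log2 CPM over the 12 libraries among 12255 genes. These libraries fall into 4 groups that share layer and treatment, so r follows the group differences and is given as a description. FGFRL1 was most like COL9A1 (r = 0.997), a cartilage collagen, and EMILIN1 (0.996). FGF7 was most like RBMS2 (0.990) and FOXP2 (0.985), and FGFR1 like FADS2 (0.982) and A4GALT (0.966). FGF2 was most like ICE2 (0.951) and KIF21A (0.947), and SPRY4 like NAA15 and MAPRE1 (both 0.955). SPRY2, which varied least between groups, had lower values, with SMNDC1 (0.864) and GNPDA1 (0.846). Among the members, FGF7 ran opposite to FGFRL1 (-0.956) and FGFR2 (-0.880), and SPRY4 ran with FGFR2 (0.702) and FGF2 (0.628).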

How the data were processed

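The 12 RNA-seq libraries fall into 4 groups of 3 by layer and treatment label. The authors deposited raw counts per gene, 1 table a layer, after mapping reads to the ARS1.2 assembly and counting them with featureCounts. The labels' processing notes also name HISAT2. Settings for strand and multi-mapping reads were not given in the sources used here, so counts of overlapping genes are uncertain. The paper names TRIzol and the labels an RNeasy kit. Positions are from the RefSeq annotation of ARS1.2, which matched 28884 of 28910 rows. Another 26 rows carry dates as names.

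The quasi-likelihood test of edgeR 4.0.16 (R 4.3.3) was run on whole tables and only the groups compared. TMM factors were used, genes of low count were dropped by filterByExpr (count 10, total 15), and p-values were adjusted by Benjamini-Hochberg, with a threshold of 0.05. The SE was derived from the fold change and its F statistic. Normalized counts are from DESeq2 1.42.0. Members and gene lists were chosen with earlier results of these data known, and the lists were written from general knowledge. They are other FGF ligands, receptors and co-receptors, carriers and heparan sulfate editing, adaptors and RAS-ERK relay, feedback inhibitors, ERK response genes and markers of 6 cell types. Every member is named. Of a list, up to 4 genes with the smallest p among those called are named, or values of those with the smallest p where none is called. LOXL2 is named as a check of the labels. FGF5, FGF10, COL2A1, COL9A1, ACAN, PRG4, CDH5, ERG, PTPRC, CD14, DMP1, GPC4, FLRT2 and FLRT3 were named after their values were seen. COL11A2, CD3E, TNXB, TEK, ALPL and IBSP were named in the same way. This holds where the rule does not name them.

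Exon lengths were not at hand, so levels are not compared between genes. Same-numbered libraries labelled LOXL2 in SLC and MLC deviated together (r of 0.168 to 0.605 between deviations from group means in 3 pairs). This pairing comes from the data, since the labels give only a number. Alternatives were DESeq2's size factors, no filter, a strict minimum of 10 counts throughout, the Wald test of DESeq2, a replicate block, leaving out each library, a common fit to all 12 libraries, and removal of each library's lowess trend of log2 CPM on gene span (smoother span 0.3). The genes most like FGFR2 in pattern are not reported here. The procedure was tested on simulated data. Counting intervals are exact, at 95%.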

Additional observations from a re-analysis of the deposited data

How the results depend on the processing

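The count of called members was 0 in SLC and stayed 0 except with a library left out, where it ranged from 0 to 4, the highest count including FGF18, which passed the filter only through the group in which it is high. In MLC it was 1, and became 2 with no filter or with the replicate block and 0 in the fit on all 12 libraries, with a range of 0 to 3 over libraries left out. It was 4 between layers with IL-1β (4 to 5 with a library left out), 2 with IL-1β + LOXL2 (1 to 3), and 0 for the interaction under every alternative run. Within SLC, within MLC and between layers with IL-1β, same-numbered libraries did not all deviate together (r from -0.227 to 0.124), 0 to 3 of 6 libraries correlating best with their own number. The block brought FGF2 in MLC to -0.87 (adjusted p = 0.0389, edgeR) and changed no other member's call there, in SLC, between layers with IL-1β or in the interaction.

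All genes called in SLC were 0 with edgeR, 4140 with DESeq2's Wald test and 5965 in the fit on all 12 libraries, and 0 to 8849 with a library left out. In MLC they were 2958, with 0 in the fit on all 12 libraries and 0 to 6653 with a library left out. Between layers they were 6548 with IL-1β (3715 in the fit on all 12 libraries), and 2268 with IL-1β + LOXL2, where the block gave 3887, the fit on all 12 libraries 4199 and leaving a library out 1140 to 4679.

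Signs turned with the gene-span trend removed. In SLC, FGF7 became 0.24, FGFR2 0.30, SPRY2 -0.25 and LOXL2 0.14, and in MLC, FGF7 became 0.17, FGFR1 0.16, FGFR2 3.7e-04 and LOXL2 0.21. SPRY2 between layers with IL-1β + LOXL2 became 0.0028 and the FGF7 interaction -0.079. With a library left out, FGFR2 in SLC ranged from -0.47 to 0.18. In MLC, FGF7 ranged from -0.092 to 0.080, FGFR1 from -0.056 to 0.084 and SPRY2 from -0.18 to 0.0017. Between layers, FGF2 ranged from -0.45 to 0.0039 with IL-1β, and SPRY2 from -0.17 to 0.011 and SPRY4 from -0.033 to 0.60 with IL-1β + LOXL2. Interactions ranged from -0.40 to 0.21 for FGF2, -0.047 to 0.12 for FGF7, -0.45 to 0.19 for FGFR2, -0.092 to 0.17 for FGFRL1 and -0.38 to 0.24 for SPRY4. The cause of these changes was not tested. FGF2 rests on 72 to 182 counts a group and FGF18 on 3 to 35, which limits both. Levels per exon length were not run, since exon lengths were not at hand.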
